A study of Mus musculus with 6 samples.

Results

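The constitutive proteasome subunits are the proteins that build the standard proteasome of every cell, and their mRNAs were followed here in mouse leukaemia cells treated with panobinostat or vehicle. Members were the protein-coding genes whose symbols begin with Psma, Psmb, Psmc or Psmd followed by a number, without the inducible subunits Psmb8, Psmb9 and Psmb10 and the thymic subunit Psmb11. The rule took 35 of the 27179 genes in the deposited count table, 15 of the 20S core (Psma and Psmb) and 20 of the 19S cap (Psmc and Psmd). The treated group was given panobinostat, an inhibitor of histone deacetylases, for 3 days, and the control group was given vehicle for the same time. Each group had 3 libraries. All 6 came from the same leukaemia line, A/E9a;NRASG12D;Ifnar1-/-, of C57BL/6 origin: it carries a form of the AML1-ETO fusion oncogene, an activated NRAS and a knockout of Ifnar1, a chain of the type I interferon receptor, in panobinostat and vehicle libraries alike. Live cells positive for green fluorescent protein were sorted from spleen. Library numbers are those of the table's columns, and the same number in both groups marks no known pair. The labels give no age of the animals and do not say whether the line is 1 clone. They also do not say that replicates were taken from different animals, so the spread behind each p-value may be technical.

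The proteasome degrades proteins that carry a chain of ubiquitin. Its core particle is a barrel of stacked rings: the outer rings are made of alpha subunits, which gate the entrance, and the inner rings of beta subunits, of which Psmb5, Psmb6 and Psmb7 hold the peptidase sites. The regulatory cap binds the ubiquitin chain, removes it, and unfolds the substrate with a ring of ATPases (the Psmc subunits). Most non-ATPase subunits (Psmd) lie in the base of the cap, together with these ATPases, or in its lid. Most subunits occur in equal numbers in the particle. In mammalian cells the transcription factor NRF1, encoded by Nfe2l1, raises many subunit genes together when proteasome activity is short, through antioxidant response elements in their promoters.

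Promoters of 5 members are shown. Those of Psmb5, Psmb6 and Psmd9 hold a match to the core letters of the element that NRF1 can bind. Psmd10 is the 1 member whose groups did not overlap, and Psma1 is the member that varied least. Each is the 150 bases before the RefSeq transcription start (GRCm38.p6), 5′ to 3′ in the direction of the gene. Capitals mark matches to TGACNNNGC, the core of the antioxidant response element, or to CCAAT, the box bound by NF-Y, on either strand. The positions are chr14:54617996-54618145, minus strand for Psmb5; chr11:70525207-70525356, plus strand for Psmb6; chr5:123228040-123228189, plus strand for Psmd9; chrX:140956712-140956861, minus strand for Psmd10; and chr7:114276117-114276266, minus strand for Psma1. For Psmb6 the start used lies inside the RefSeq gene bounds, which begin further upstream, at 70525324. The Psmb6 match lies inside these bounds too.
Psmb5: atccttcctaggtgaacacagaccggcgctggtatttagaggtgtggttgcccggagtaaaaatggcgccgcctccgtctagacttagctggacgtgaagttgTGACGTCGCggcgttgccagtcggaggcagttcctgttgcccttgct
Psmb6: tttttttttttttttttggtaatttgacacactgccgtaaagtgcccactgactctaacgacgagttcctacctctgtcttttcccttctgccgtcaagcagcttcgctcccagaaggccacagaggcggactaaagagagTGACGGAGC
Psmd9: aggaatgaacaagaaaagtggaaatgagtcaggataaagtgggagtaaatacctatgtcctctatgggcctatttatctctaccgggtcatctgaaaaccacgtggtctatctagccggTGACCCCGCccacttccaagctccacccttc
Psmd10: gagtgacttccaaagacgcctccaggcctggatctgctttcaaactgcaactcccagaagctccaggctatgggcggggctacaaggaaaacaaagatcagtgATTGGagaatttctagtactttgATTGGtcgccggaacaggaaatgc
Psma1: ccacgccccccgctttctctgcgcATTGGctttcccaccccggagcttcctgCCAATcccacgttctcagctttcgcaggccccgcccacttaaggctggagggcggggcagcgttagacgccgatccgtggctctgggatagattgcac

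Promoter windows of 300 bases, 250 before and 50 after the start, were matched for 28 of the 35 members. The response element core was found in 5 of these 28 genes (17.9%), namely Psmb5, Psmb6, Psmc6, Psmd9 and Psmd12, and in 14% of the 27025 genes with a window. CCAAT was found in 11 of 28 (39.3%), against 41.1% of all genes. The GC box GGGCGG was found in 18 of 28 (64.3%), against 38.2% of all genes, and the E-box CACGTG in 2 of 28 (7.14%), against 8.09%. The 27025 genes were not limited to those expressed here, and no share over expressed genes was taken. All 4 motifs were searched on both strands, and a match is a description of the letters only. In the catalytic genes Psmb5 and Psmb6 the match to the response element core began at positions -47 and -9 from the start used, and in Psmd9 at -31.

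Library totals ran from 34023178 to 35962605 counts with panobinostat and from 31989622 to 34704965 with vehicle. Levels are given as CPM, counts scaled to a common library size with TMM factors. On the first principal component of all tested genes (50.7% of the variance), vehicle library 1 stood at -53.7 while vehicle libraries 2 and 3 stood at 54.3 and 56.4. The second component (27.6%) set off panobinostat library 1, at 64.9. Counts of members are also given without these libraries. The 6 leukaemia and progenitor markers did not have like levels. In libraries 1, 2 and 3, Gata2 stood at 1112, 808 and 758 CPM with panobinostat and 944, 713 and 649 CPM with vehicle, Kit at 241, 173 and 172 CPM with panobinostat and 121, 205 and 266 CPM with vehicle, Myb at 588, 519 and 525 CPM with panobinostat and 533, 402 and 546 CPM with vehicle and Runx1t1 at 225, 205 and 167 CPM with panobinostat and 171, 161 and 170.3 CPM with vehicle. The stem and progenitor marker Cd34 was low, at 6.09, 1.88 and 3.68 CPM with panobinostat and 4.20, 0.430 and 0.348 CPM with vehicle, and so was Ptprc, the leucocyte common antigen CD45, at 1.31, 3.49 and 9.19 CPM with panobinostat and 11.8, 11.8 and 10.8 CPM with vehicle. The summed level of 12 B cell markers was 10.03 to 68.3 CPM with panobinostat and 57.0 to 125 CPM with vehicle, with 12 of 12 estimates lower. That of 10 T cell markers was 10.5 to 13.996 CPM with panobinostat and 14.4 to 17.0 CPM with vehicle, with 10 of 10 lower. That of 13 granulocyte and monocyte markers was 6.03 to 8.48 CPM with panobinostat and 10.1 to 13.4 CPM with vehicle, with 8 of the 8 tested lower. That of 10 mast cell and basophil markers was 968 to 2432 CPM with panobinostat and 833 to 898 CPM with vehicle, with 9 of the 9 tested higher. The 2432 CPM was that of panobinostat library 1, and panobinostat libraries 2 and 3 stood at 980 and 968 CPM. For erythroid markers, of which 10 of 12 are in the table, the sum was 2999 to 22935 CPM with panobinostat and 8207 to 23571 CPM with vehicle. Of the erythroid estimates 9 were lower and 1 higher. At an adjusted p of 0.05, edgeR's quasi-likelihood test called 0 markers of these lists. Over all tested genes 49.8% of estimates were lower and 50.2% higher. No marker in the table was at 0 in every library, although Cd3d, Cd3e, Cd3g, Mpo, Elane and Itgam were each under 1 CPM in all 6. In bulk RNA, fewer cells of a type and less RNA per cell cannot be told apart. Whether any of these cells had a part in the proteasome levels was not tested.

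No constitutive proteasome gene passed the test for a change with panobinostat. Of the 34 members that passed the filter on low counts, edgeR's quasi-likelihood test called 0 at an adjusted p of 0.05, with a smallest adjusted p of 0.998, where 0 of 13207 genes were called (0%). At an unadjusted p under 0.05 it took 0 members and 301 genes in all, which is 2.28% of those tested (1.32% higher and 0.962% lower with panobinostat). DESeq2 and limma-voom called 0 members too, where DESeq2 called 9 genes in all (0.0681%) and limma-voom 0 (0%). Groups did not overlap for 1 of 34 members, Psmd10, which was lower. Over all tested genes 7.43% had groups that did not overlap, 3.79% higher and 3.63% lower with panobinostat. Estimates were lower with panobinostat for 25 of 34 members and higher for 9, where 49.8% of all tested genes were lower and 50.2% higher. Of the 5884 tested genes with a mean level within the members' range, 53.3% were lower. The median log2 fold change of panobinostat over vehicle was -0.05 over members, 0.0009 over all tested genes and -0.01 over those 5884. That direction rested on vehicle library 2: without it 11 of 34 estimates were lower and 23 higher.

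An interval was also computed for each subunit gene, taken singly and not for all members jointly. The 95% interval of the fold change lay within 2-fold in either direction for 34 of 34 tested members, and within 1.5-fold for 31 of 34. Of all tested genes, 9187 of 13207 had an interval within 2-fold and 6315 within 1.5-fold. Of the 5884 tested genes with a mean level within the members' range, 5355 had an interval within 2-fold and 4283 within 1.5-fold. The exceptions at 1.5-fold were Psmd9, with a fold change of 0.854 and an interval of 0.617 to 1.18, Psmb2, at 0.877 with an interval of 0.651 to 1.18, and Psmc1, at 1.15 with an interval of 0.872 to 1.51. Members also varied less between libraries than most genes. The SD of log2 CPM over the 6 libraries had a median of 0.13 over the 34 members, 0.23 over all tested genes and 0.17 over the 5884 tested genes whose mean level lay within the members' range.

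**Figure D1:**
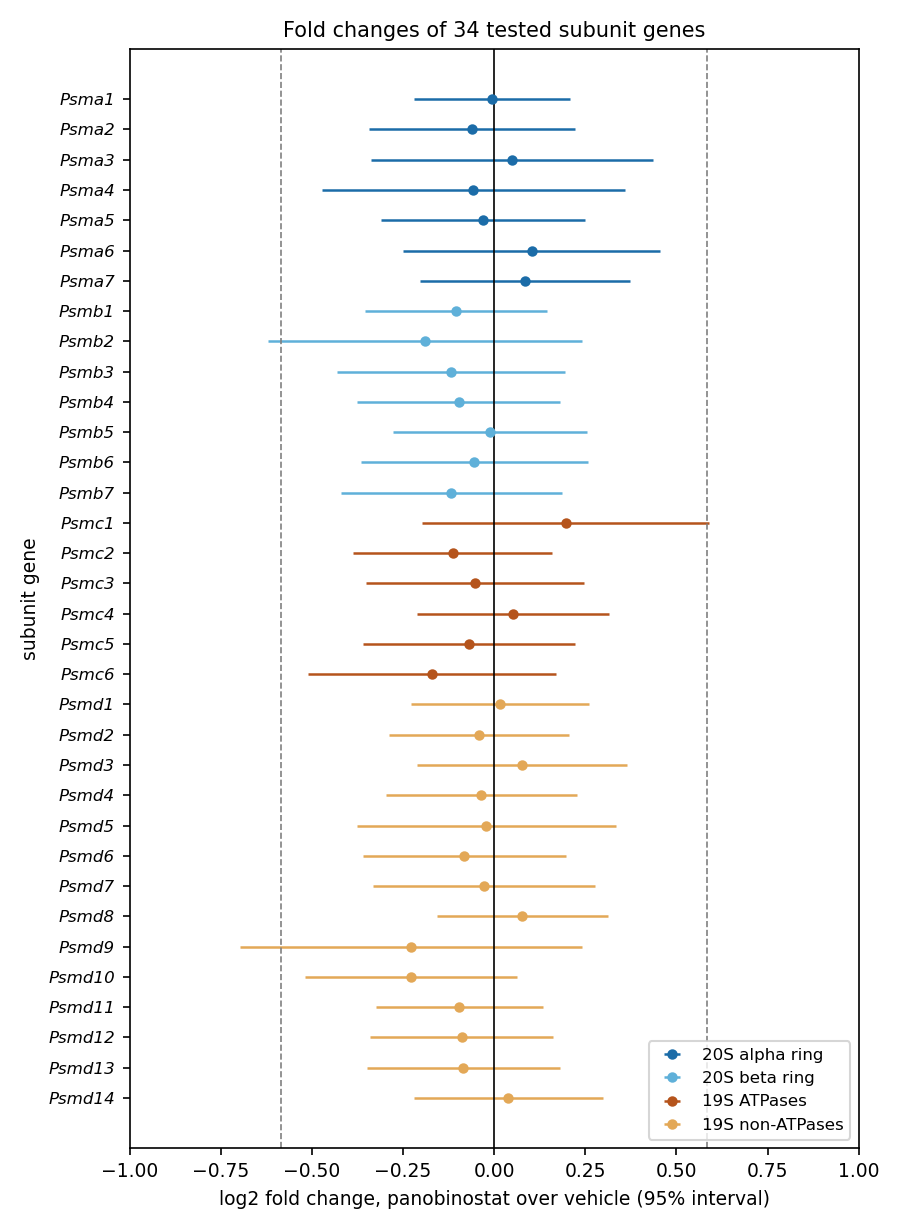
Log2 fold change of panobinostat over vehicle for each of the 34 tested subunit genes (point) with its 95% interval from edgeR's quasi-likelihood fit (bar), coloured by part of the particle; dashed lines mark 1.5-fold. Every interval crosses 0, and 31 of 34 stay between the dashed lines.

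In the alpha ring, 3 of 7 tested estimates were higher with panobinostat and 4 lower, with a median log2 fold change of -0.01. Psma7, an alpha subunit (Entrez gene 26444, chromosome 2, 180036367 to 180042464, GRCm38), stood at 137, 131 and 124 CPM in panobinostat libraries 1, 2 and 3, against 117, 142 and 112 CPM in vehicle libraries 1, 2 and 3. The groups overlapped, with vehicle library 2 the highest of the 6. Its log2 fold change was 0.08 (SE 0.120). The testis form Psma8, which replaces Psma7 in germ cells, had 0 counts in every library except vehicle library 2, which had 2. A count of 0 allows up to 3 counts, which is 0.0834 to 0.0890 CPM in the panobinostat and 0.0870 to 0.0948 CPM in the other vehicle libraries, and Psma8 was not tested.

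Psma1 had the narrowest spread of all members, at 138, 144 and 149.9 CPM in panobinostat libraries 1, 2 and 3, against 141, 152 and 140.1 CPM in vehicle libraries 1, 2 and 3. Its highest library was 1.10 times its lowest, and its log2 fold change was -0.01 (SE 0.0889). Psma6, with the highest fold change of the 20S core, stood at 168, 122 and 129.6 CPM in panobinostat libraries 1, 2 and 3, against 127, 141 and 123 CPM in vehicle libraries 1, 2 and 3. Panobinostat library 1 was the highest library and the other 5 lay between 122 and 141 CPM, so the groups overlapped. The log2 fold change of Psma6 was 0.10 (SE 0.146), with a fold interval of 0.841 to 1.37. Without panobinostat library 1 it was -0.05. Psma3 and Psma4 were singled out after their values were seen. Psma3 stood at 145, 109 and 108 CPM with panobinostat and 100.4, 129 and 121 CPM with vehicle in libraries 1, 2 and 3. Psma4 stood at 181, 143 and 131 CPM with panobinostat and 134, 184 and 156 CPM with vehicle in the same order, so panobinostat library 1 and vehicle library 2 were the high ones for both. Their log2 fold changes were 0.05 and -0.06, and -0.10 and -0.20 without panobinostat library 1. The remaining members, Psma2 and Psma5, kept within 108 to 138 CPM and 79.3 to 102 CPM.

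In the beta ring all 7 estimates were lower with panobinostat, with a median log2 fold change of -0.10, and 0 of 7 were called. Of all tested genes 49.8% had a lower estimate. Without vehicle library 2, 5 of the 7 were higher, with log2 fold changes from 0.0011 (Psmb4) to 0.07 (Psmb5), and Psmb1 and Psmb2 were at -0.02 and -0.02. Psmb5, which carries the chymotrypsin-like site and is the main target of the drug bortezomib (Entrez gene 19173, chromosome 14, 54614120 to 54617995), stood at 65.4, 74.5 and 72.6 CPM in panobinostat libraries 1, 2 and 3, against 67.2, 79.4 and 67.7 CPM in vehicle libraries 1, 2 and 3. Its groups overlapped throughout and its log2 fold change was -0.01 (SE 0.11). The interval of its fold change was 0.825 to 1.19. Psmb6, which carries the caspase-like site (Entrez gene 19175, chromosome 11, 70525324 to 70527858), stood at 86.4, 86.6 and 87.1 CPM in panobinostat libraries 1, 2 and 3, against 76.6, 104 and 89.0 CPM in vehicle libraries 1, 2 and 3. The 3 panobinostat libraries lay within 1 CPM of each other and inside the range of the vehicle libraries, and the log2 fold change was -0.05 (SE 0.129). Psmb7, which carries the trypsin-like site, stood at 118, 116 and 122 CPM in panobinostat libraries 1, 2 and 3, against 112, 149 and 124 CPM in vehicle libraries 1, 2 and 3, with vehicle library 2 above all others and a log2 fold change of -0.12 (SE 0.126). Of its exon length, 405 bases or 34.9% overlap exons of Nek6 on the opposite strand, and reads of the 2 genes cannot be told apart if strand was not used in counting. Processed pseudogenes named for Psmb5, Psmb6 and Psmb7 are annotated, and how their reads were assigned is not given in the sources used here.

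The remaining beta subunits carry no peptidase site. Among them Psmb2 had the lowest estimate of the ring and stood at 124, 110.0 and 105 CPM in panobinostat libraries 1, 2 and 3, against 99.8, 157 and 129 CPM in vehicle libraries 1, 2 and 3. It was the highest in vehicle library 2 and the lowest in vehicle library 1, and all 3 vehicle libraries lay outside the range of the panobinostat libraries, 1 below and 2 above. Its log2 fold change was -0.19 (SE 0.178). Psmb1 stood at 142, 147 and 148 CPM in panobinostat libraries 1, 2 and 3, against 146, 175 and 150.1 CPM in vehicle libraries 1, 2 and 3, with a log2 fold change of -0.10 (SE 0.104). Again the panobinostat libraries lay close together while vehicle library 2 stood above. Psmb3 and Psmb4 had log2 fold changes of -0.12 and -0.10. The summed level of the 7 beta subunit genes was 790, 799 and 789 CPM in panobinostat libraries 1, 2 and 3, against 749, 982 and 828 CPM in vehicle libraries 1, 2 and 3.

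Among the ATPases, 2 of 6 estimates were higher with panobinostat and 4 lower, with a median log2 fold change of -0.06. Psmc1 had the highest fold change of all members and stood at 178, 124 and 125 CPM in panobinostat libraries 1, 2 and 3, against 119, 131 and 123 CPM in vehicle libraries 1, 2 and 3. Panobinostat library 1 alone lay above the vehicle libraries. Its log2 fold change was 0.20 (SE 0.163), and 0.0037 without panobinostat library 1. Psmc6 had the lowest fold change of the ring and stood at 73.2, 73.9 and 81.8 CPM in panobinostat libraries 1, 2 and 3, against 72.5, 101 and 84.0 CPM in vehicle libraries 1, 2 and 3, with a log2 fold change of -0.17 (SE 0.141). Vehicle library 2 was the highest here, and vehicle library 1 the lowest of all 6. Psmc4 (Entrez gene 23996, chromosome 7, 28041702 to 28050092) stood at 108, 121 and 118 CPM in panobinostat libraries 1, 2 and 3, against 102, 124 and 109 CPM in vehicle libraries 1, 2 and 3, with overlapping groups and a log2 fold change of 0.05 (SE 0.109). The remaining Psmc2, Psmc3 and Psmc5 had log2 fold changes of -0.11, -0.05 and -0.07.

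Of the 14 non-ATPase cap genes, 4 had higher and 10 lower estimates with panobinostat, with a median log2 fold change of -0.04. Psmd14, the deubiquitinase that cuts the ubiquitin chain from the substrate (Entrez gene 59029, chromosome 2, 61711694 to 61800376), stood at 91.1, 105 and 108 CPM in panobinostat libraries 1, 2 and 3, against 96.1, 106 and 94.4 CPM in vehicle libraries 1, 2 and 3. Its groups overlapped, and its log2 fold change was 0.04 (SE 0.107). Psmd4, a ubiquitin receptor of the cap, stood at 137, 151 and 149 CPM in panobinostat libraries 1, 2 and 3, against 144, 166 and 138 CPM in vehicle libraries 1, 2 and 3, with a log2 fold change of -0.04 (SE 0.108). The large scaffold subunits of the base, Psmd1 and Psmd2, had the narrowest spread of the cap genes. Psmd1 stood at 180.1, 209 and 211 CPM in panobinostat libraries 1, 2 and 3, against 194, 199.6 and 199.9 CPM in vehicle libraries 1, 2 and 3, with panobinostat library 1 lowest and a log2 fold change of 0.02 (SE 0.101). Psmd2, the member with the highest CPM, stood at 308, 328 and 329.8 CPM in panobinostat libraries 1, 2 and 3, against 302, 345 and 348 CPM in vehicle libraries 1, 2 and 3. The groups of Psmd2 overlapped, and its log2 fold change was -0.04 (SE 0.103). The lid subunits Psmd3, Psmd6, Psmd7, Psmd8, Psmd11, Psmd12 and Psmd13 had log2 fold changes between -0.10 (Psmd11) and 0.08 (Psmd8).

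Psmd5, Psmd9 and Psmd10 encode chaperones that help assemble the base and are not part of the finished particle. Psmd10, also known as gankyrin (Entrez gene 53380, chromosome X, 140948425 to 140956711), stood at 37.5, 40.5 and 39.0 CPM in panobinostat libraries 1, 2 and 3, against 40.6, 52.3 and 44.1 CPM in vehicle libraries 1, 2 and 3. It was the 1 member whose panobinostat libraries all lay below its vehicle libraries, by a margin of less than 1 CPM between panobinostat library 2 and vehicle library 1. Its log2 fold change was -0.23 (SE 0.120), with an unadjusted p of 0.103 in edgeR's quasi-likelihood test and a fold interval of 0.698 to 1.04. Psmd9 had the widest spread of all members and stood at 25.9, 31.8 and 31.3 CPM in panobinostat libraries 1, 2 and 3, against 26.2, 42.1 and 35.9 CPM in vehicle libraries 1, 2 and 3. Both libraries numbered 1 were low and vehicle libraries 2 and 3 were high, and the log2 fold change was -0.23 (SE 0.194). Psmd5 ran the other way in the vehicle group, at 81.1, 109 and 105 CPM with panobinostat and 111, 98.8 and 89.8 CPM with vehicle in libraries 1, 2 and 3, and its log2 fold change was -0.02 (SE 0.147).

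The differences that members did show lay between libraries and were largely shared by the 20S and 19S genes. Set against its own mean log2 CPM over the 6 libraries, each gene was scored above or below in each library: 33 of 34 members were above their own mean in vehicle library 2, against 6752 of 13207 tested genes, and 1 of 34 (Psmd5) in vehicle library 1, against 6537 of 13207. Vehicle library 2 was the highest of the 6 for 25 of 34 members, while it was the highest for 22.4% of all tested genes. The lowest library was panobinostat library 1 for 16 members and vehicle library 1 for 15, where these were lowest for 20.5% and 25.4% of all tested genes. Relative to the median of the other 5 libraries, members had a median deviation of -0.12 in panobinostat library 1, -0.01 in library 2 and 0.02 in library 3, against -0.12, 0.20 and 0.04 in vehicle libraries 1, 2 and 3. Vehicle libraries 2 and 3 lay side by side on the first principal component of all genes, yet differed in the members. Vehicle library 2 also had the highest summed B cell markers, at 125 CPM, T cell markers, at 17.0 CPM, and granulocyte and monocyte markers, at 13.4 CPM. Of that T cell sum Cd247 made up 8.75 CPM, and Cd247 was highest in panobinostat library 1, at 10.1 CPM. Among the other T cell markers, Cd8b1 and Cd5 were highest in vehicle library 2. Cd3d, Cd3e, Cd3g, Cd8a and Tcf7 peaked in vehicle library 1, and Cd4 and Cd28 in panobinostat library 3. Summed erythroid markers were highest in vehicle library 1, at 23571 CPM, and mast cell and basophil markers in panobinostat library 1, at 2432 CPM. The part of these cells in this pattern was not tested.

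Across the 6 libraries, the median Pearson r of log2 CPM over the 561 pairs of members was 0.63, over the 91 pairs within the 20S core 0.69, over the 190 pairs within the 19S cap 0.66, and over the 280 pairs of a 20S with a 19S gene 0.59. Over all pairs of tested genes the median r was -0.0009. These values describe 6 libraries and share their depth and scaling. Psmd6 had the highest median r with the other members, 0.85, and Psmc1 the lowest, -0.33, followed by Psma6 at -0.15.

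**Figure D2:**
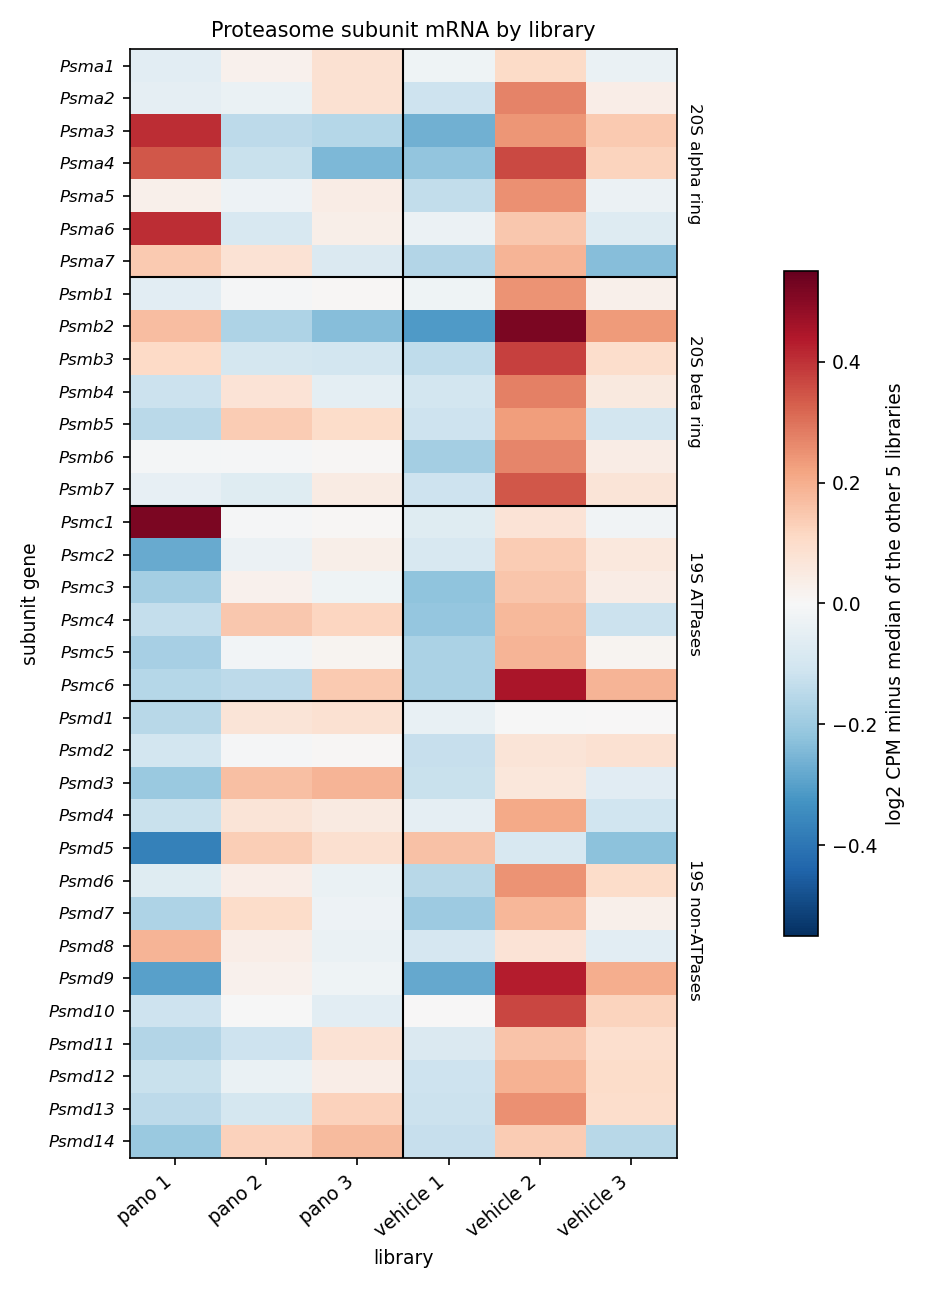
Log2 CPM of each tested subunit gene in each library, minus the median of the other 5 libraries; rows are grouped by part of the particle and the vertical line separates panobinostat (pano) from vehicle libraries. The vehicle 2 column is above 0 in nearly every row, the vehicle 1 column is below, and in the pano 1 column Psma3, Psma4, Psma6 and Psmc1 stand above while most cap genes stand below.

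Core and cap parted most in panobinostat library 1. The 15 core genes summed to 1759, 1647 and 1641 CPM in panobinostat libraries 1, 2 and 3, against 1556, 1968 and 1681 CPM in vehicle libraries 1, 2 and 3. The 20 cap genes summed to 2418, 2606 and 2618 CPM in panobinostat libraries, against 2397, 2779.8 and 2575 CPM in vehicle libraries. The ratio of core to cap was therefore 0.727, 0.632 and 0.627 with panobinostat, against 0.649, 0.708 and 0.653 with vehicle, a mean of 0.662 ± 0.0567 with panobinostat and 0.670 ± 0.0330 with vehicle (SD, n = 3 each). The groups overlapped and the means differed by less than either SD. In panobinostat library 1 the centred median was -0.02 for the core and -0.13 for the cap, and 2 of 20 cap genes, Psmc1 and Psmd8, were above their own mean, against 6 of 14 core genes. In vehicle library 2 both parts were high, at 0.22 for the core and 0.16 for the cap. All 35 genes together took 0.419, 0.421 and 0.422% of counts in panobinostat libraries 1, 2 and 3, against 0.391, 0.477 and 0.435% in vehicle libraries 1, 2 and 3.

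**Figure D3:**
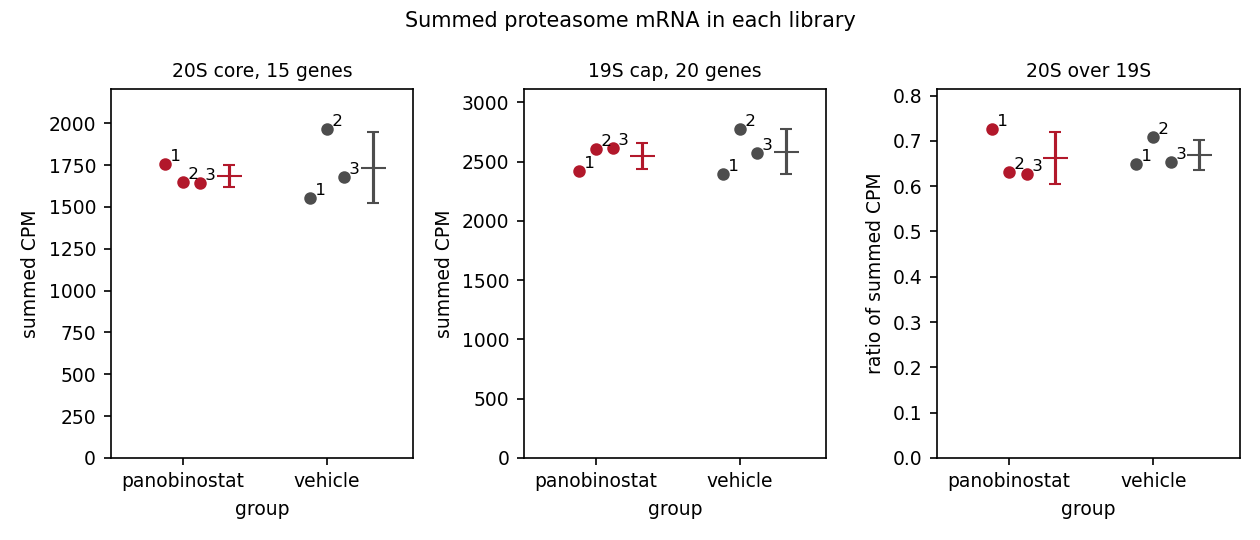
Summed CPM of the 15 core genes (left) and 20 cap genes (middle) and their ratio (right) in each library; points carry the library number, and the bar beside them is the group mean with its SD over 3 libraries. The vehicle libraries spread more widely than the panobinostat libraries in both sums, and the ratio is highest in panobinostat library 1.

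Members on chromosome 12 stood apart in panobinostat library 1. Psma6 (Entrez gene 26443, chromosome 12, 55384222 to 55418459), Psma3 (Entrez gene 19167, chromosome 12, 70969283 to 70995877) and Psmc1 (Entrez gene 19179, chromosome 12, 100110202 to 100123364) were the 3 members on that chromosome. In panobinostat library 1 they stood at 1.33, 1.33 and 1.43 times the median of the other 5 libraries, and they were the 3 highest of all 34 tested members there. The pattern, noticed after the members' values were seen, was seen in other genes as well: the 313 other chromosome 12 genes with a mean of at least 10 CPM had a median of 1.42 times the other libraries, a log2 deviation of 0.50, and 90.7% of them were above. The medians of the 19 other chromosomes in that library ran from -0.05 to 0.03. In the other 5 libraries the chromosome 12 median was -0.04 and -0.06 (panobinostat libraries 2 and 3) and -0.07, -0.02 and 0.0013 (vehicle libraries 1, 2 and 3). DNA copy number was not measured here, and the cause of the shift was not tested.

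Psma4, the next highest member in that library at 1.27 times the others, lies on chromosome 9, whose other genes had a median deviation of 0.02. Over the members not on chromosome 12, the ratio of core to cap was 0.646, 0.570 and 0.563 in panobinostat libraries 1, 2 and 3, against 0.583, 0.641 and 0.586 in vehicle libraries 1, 2 and 3. Panobinostat library 1 was the highest of the 6 with and without these genes, followed by vehicle library 2. Sel1l, also named after its values were seen, is a partner of the ubiquitin ligase Syvn1 in the endoplasmic reticulum and lies on chromosome 12. It stood at 144, 93.2 and 95.2 CPM in panobinostat libraries 1, 2 and 3, against 95.4, 94.7 and 111 CPM in vehicle libraries 1, 2 and 3.

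**Figure D4:**
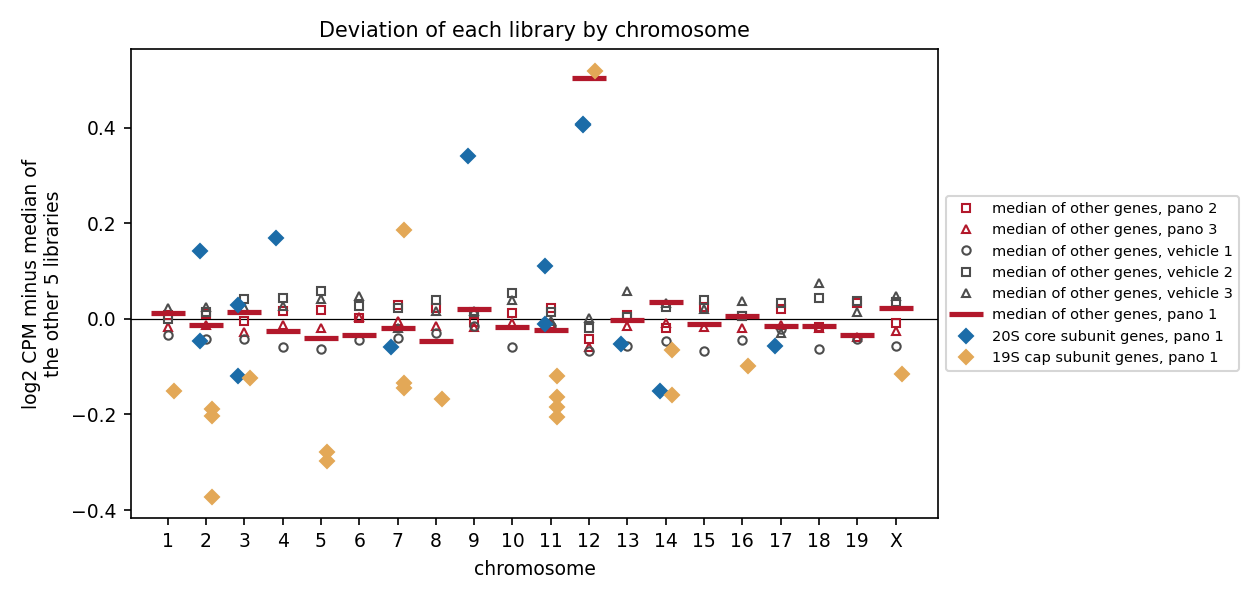
Log2 CPM minus the median of the other 5 libraries, by chromosome: bars give the median over non-member genes in panobinostat library 1 (pano 1), open symbols the same median in the other 5 libraries, and diamonds the subunit genes in panobinostat library 1. On chromosome 12 the bar stands at 0.50 and the 3 subunit genes lie near it, while the medians of all other chromosomes lie near 0.

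Levels between genes were compared as CPM per kilobase of the principal transcript in the annotation, averaged over the 6 libraries. The 34 mRNAs spanned 12.1-fold on this scale, from Psmd9 at 12.4 ± 2.37 to Psmb4 at 150.1 ± 13.4 CPM per kilobase (SD, n = 6). With principal transcript lengths the beta ring was the most even, with a 1.90-fold range, followed by the ATPases with 2.93-fold, the alpha ring with 3.43-fold and the non-ATPases with 8.94-fold. That order depends on the length chosen. All annotated exons of Psmb1 together span 3427 bases, against 1758 in its principal transcript, and with such lengths the beta ring is no longer the most even. The chaperones Psmd9, Psmd5 and Psmd10 were the 3 lowest members, at 12.4 ± 2.37, 22.5 ± 2.62 and 29.6 ± 3.75 CPM per kilobase. The median level was 111 CPM per kilobase for core genes in panobinostat and 117 in vehicle libraries, and 65.5 for cap genes in panobinostat and 66.8 in vehicle libraries. Among the catalytic subunits Psmb6 stood at 111 ± 11.3, Psmb7 at 106 ± 11.5 and Psmb5 at 79.1 ± 5.91 CPM per kilobase, so that Psmb5 was the lowest. Psmb6 lay above Psmb7 in every library except vehicle library 1, where they stood at 96.0 and 96.8 CPM per kilobase. The scale depends on transcript lengths that the counting may not have used.

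**Figure D5:**
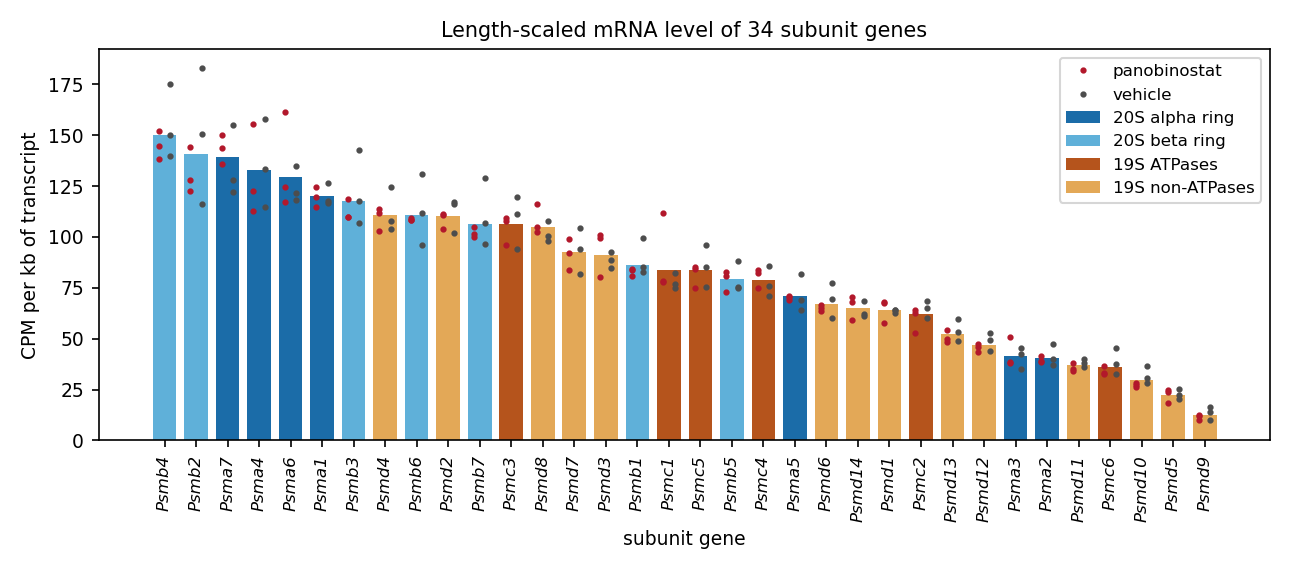
CPM per kilobase of principal transcript for the 34 tested subunit genes in falling order; bars are means over 6 libraries coloured by part of the particle, and points are the single libraries, panobinostat left and vehicle right. Core genes fill most of the left and the assembly chaperones Psmd10, Psmd5 and Psmd9 the right end.

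Genes that assemble, cap or feed the proteasome gave 0 calls as well. The cap subunits outside the naming rule, Adrm1 and Sem1, had log2 fold changes of -0.03 (SE 0.143) and -0.10 (SE 0.159), and both were highest in vehicle library 2 and low in vehicle library 1, as most members were. Of the 5 tested assembly chaperones, 2 had higher and 3 lower estimates, and Pomp, the chaperone of the maturing core, stood at 97.6, 110.2 and 112 CPM with panobinostat and 109.7, 130.5 and 107 CPM with vehicle in libraries 1, 2 and 3. Its log2 fold change was -0.12 (SE 0.117), and that of Psmg2, a chaperone of the alpha ring, -0.09 (SE 0.128). Of the 5 genes for activators and the inhibitor PI31 (Psmf1), 4 had higher estimates. The largest was that of Psme1, a subunit of the interferon-inducible activator, at 163, 168 and 138 CPM with panobinostat and 129, 157 and 132 CPM with vehicle, with a log2 fold change of 0.17 (SE 0.126), and its partner Psme2 had one of 0.12 (SE 0.182). Of 11 genes for bound deubiquitinases, ligases and shuttle factors, 4 were higher and 7 lower, with the smallest p for the shuttle gene Ubqln1 at a log2 fold change of -0.20 (SE 0.141) and for Txnl1, a thioredoxin bound to the cap, at -0.15 (SE 0.183). Of 6 genes for ubiquitin and its activating enzymes, 3 were higher and 3 lower, and Ubb, a polyubiquitin gene, had a log2 fold change of -0.08 (SE 0.104). Uba1, the main ubiquitin-activating enzyme, stood at 509.9, 546 and 613 CPM in panobinostat libraries 1, 2 and 3, against 509, 473 and 476 CPM in vehicle libraries 1, 2 and 3. Its groups did not overlap, although panobinostat library 1 (509.9 CPM) and vehicle library 1 (509 CPM) were almost equal. Over all tested genes 7.43% had groups without overlap. The log2 fold change of Uba1 was 0.20 (SE 0.11) with an unadjusted p of 0.123 in edgeR's test.

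Nfe2l1, which encodes NRF1, stood at 88.9, 93.1 and 87.2 CPM in panobinostat libraries 1, 2 and 3, against 90.2, 80.7 and 86.0 CPM in vehicle libraries 1, 2 and 3, with a log2 fold change of 0.07 (SE 0.0898). It was lowest in vehicle library 2, where the members were highest. This is the mRNA level only, and whether NRF1 had a part in the members' levels was not tested. Of the 12 genes of its processing and partner list, 6 had higher and 6 lower estimates with a median of 0.02. The smallest p were those of Syvn1, a ubiquitin ligase of the endoplasmic reticulum, at a log2 fold change of -0.30 (SE 0.151), and of Maff, a small MAF partner, at 0.85 (SE 0.539) on 3.46 CPM or less. The 3 tested inducible subunits all had higher estimates, with Psmb8 at 66.5, 36.9 and 36.5 CPM with panobinostat and 41.9, 28.7 and 22.3 CPM with vehicle, Psmb9 at 47.7, 22.8 and 22.4 CPM with panobinostat and 27.3, 24.4 and 13.8 CPM with vehicle and Psmb10 at 53.3, 44.5 and 41.8 CPM with panobinostat and 44.0, 39.6 and 32.8 CPM with vehicle in libraries 1, 2 and 3. Panobinostat library 1 was the highest for each and vehicle library 3 the lowest, and 0 of 3 were called by edgeR (adjusted p = 0.998 for each).

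Members gave 0 calls with each of the libraries that stood apart left out. Without panobinostat library 1, edgeR called 0 of 13471 genes, with 276 at an unadjusted p under 0.05. Member estimates were then 13 higher and 21 lower, and the median log2 fold change was -0.06 over the 20S core and -0.0029 over the 19S cap, against -0.06 and -0.05 with that library. Without vehicle library 1, edgeR called 324 of 13369 genes (2.42%) and 0 of 34 members, although 27 estimates were lower and 4 members had an unadjusted p under 0.05, as 20.3% of all genes did. These were Psmd9, Psmd10, Psmb2 and Psmc6, with log2 fold changes of -0.41, -0.32, -0.35 and -0.29 and edgeR adjusted p from 0.178 to 0.222. Without both libraries numbered 1 it called 1590 of 13239 genes (12%) and again 0 of 34 members. There 28 estimates were lower and 6 members had an unadjusted p under 0.05, where 28.2% of all genes did, and the smallest adjusted p was 0.0553 for Psmb2, with a log2 fold change of -0.42. In the settings without vehicle library 1, the vehicle group was made up of vehicle libraries 2 and 3, and vehicle library 2 was the highest for most members. The cause of the shift in member estimates in these settings was not tested.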

How the data were processed

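RNA-seq was made from sorted spleen cells with TruSeq mRNA libraries, per the labels' protocols. The authors deposited 1 table of raw counts per gene, not normalized, over 27179 Entrez genes. The submitters' processing notes name HISAT2 2.1.0, Subread 2.0.0, featureCounts, the build mm10, limma, cutadapt 2.1, bcl2fastq 2.17.1.14 and FastQC 0.11.6; the sources used here give neither annotation nor strand setting. Columns were assigned to groups by name. Symbols came from RefSeq GRCm38.p6 (25275 rows matched) and lengths from the longest principal coding transcript in GENCODE.

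Counts were filtered (filterByExpr, minimum count 10), scaled by TMM and tested with edgeR 4.0.16 (quasi-likelihood F test, robust, Benjamini-Hochberg over 13207 genes, threshold 0.05, R 4.3.3). The SE is the log2 fold change divided by the square root of F, and intervals are 95%. Log2 CPM used a prior count of 2. DESeq2 1.42.0, limma 3.58.1 and other scalings, filters and libraries were alternatives. Members and lists were chosen with earlier results of these data known. Named in full were catalytic, receptor, scaffold and deubiquitinase subunits, Psma7, Psma8, Psmc4, the smallest p, the extreme fold changes and spreads, and members whose groups did not overlap. Counting floors (3 counts) cover counting error only.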

Additional observations from a re-analysis of the deposited data

How the results depend on the processing

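The members gave 0 calls under each of the 17 alternatives, and 16 of 272 named member values changed sign. Over all genes, the count stayed at 0 under the other scalings, filters, the fit without the robust option, limma-voom, an adjusted p of 0.01 and the replicate block, and DESeq2 called 7 higher and 2 lower. With 1 library left out in turn, calls ran from 0 to 268 higher and from 0 to 56 lower, the maximum being without vehicle library 1. With both libraries numbered 1 left out there were 974 higher and 616 lower, and of the NRF1 pathway genes named in the report Syvn1 passed (log2 fold change -0.40, edgeR adjusted p = 0.0278). The cause was not tested. With 1 library left out, the median log2 fold change ran from -0.16 to 0.06 over the 20S core and from -0.14 to 0.02 over the 19S cap, and was above 0 without vehicle library 2. With library size alone the centred 20S median in panobinostat library 2 was -0.058, against -0.043 with TMM. The sources used here do not say whether the numbers in the column names pair the samples, and they were not treated as pairs: deviations of same-numbered libraries correlated at -0.14, 0.07 and -0.20 over genes, and the replicate block called 0 genes, with medians of -0.05 for the 20S core and -0.04 for the 19S cap. With 3 libraries a group, 31 of 34 member intervals lay within 1.5-fold. Fold changes inside a gene's interval cannot be told apart with these data, and an interval is not a limit of detection.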
